A study of Mus musculus with 9 samples.

Results

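The epithelial sodium channel ENaC and the genes through which aldosterone acts on it were followed as a set of 10 genes, taken by symbol from the 55385 genes of the deposited table. They were the channel subunits Scnn1a, Scnn1b and Scnn1g, the mineralocorticoid receptor Nr3c2, the steroid-inactivating enzyme Hsd11b2, the kinase Sgk1, the vasopressin receptor Avpr2, the ubiquitin ligase Nedd4l and the transcription factors Gata3 and Elf5. All 10 passed the filter on low counts, and they were tested among 15519 genes. RNA came from mouse kidney cells sorted for the red fluorescent protein tdTomato, in 3 groups of 3 libraries described as biological replicates. All mice were males aged 9 to 12 weeks, of 25 to 30 g, and carried the R26RtdT/+ reporter. Uninjured cells came from Slc34a1IRES-CreERT2/+:R26RtdT/+ mice given tamoxifen, so the reporter was driven by a Cre recombinase placed behind Slc34a1, the sodium-phosphate cotransporter of the proximal tubule. Cells of the other groups came from Sox9IRES-CreERT2/+:R26RtdT/+ mice with bilateral ischemia-reperfusion injury, in which Sox9, a regulator that tubule epithelium switches on after injury, drove the Cre. For the 48 h group tamoxifen was given at the injury, and for the d14 group on days 10 and 12, with cells taken on day 14. The Cre allele, the injury and the tamoxifen schedule differ together between uninjured and Sox9 groups and cannot be told apart, and the schedule and the time also differ together between 48 h and d14.

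ENaC is a channel of the apical membrane, built from an alpha, a beta and a gamma subunit, through which principal cells and neighbouring cells of the connecting tubule and late distal convoluted tubule take up sodium. Aldosterone binds the mineralocorticoid receptor, which then raises transcription of Sgk1 and of Scnn1a. The enzyme encoded by Hsd11b2 inactivates corticosterone, which would otherwise occupy the same receptor. The kinase SGK1 phosphorylates the ligase NEDD4-2, the product of Nedd4l, and so keeps it from removing ENaC from the membrane. Vasopressin acts on the same cells through its V2 receptor, and Gata3 and Elf5 are transcription factors of the collecting duct lineage and its principal cells.

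Scnn1g and Scnn1b are neighbours on mouse chromosome 7, where their annotated starts lie 130559 bases apart on the plus strand and 96562 bases separate the genes. The RefSeq sequences before the starts of Scnn1g (chr7:121734229-121734478) and Scnn1b (chr7:121864788-121865037) are shown because these subunit genes rose together. A window before 1 of the 6 annotated starts of Sgk1 (chr10:21993640-21993889) was picked because, of the 13 windows searched, it alone holds a paired steroid receptor site, so its match is no measure of how often Sgk1 windows hold one. Each is 250 bases in GRCm38.p6, plus strand, 5′ to 3′.
Scnn1g: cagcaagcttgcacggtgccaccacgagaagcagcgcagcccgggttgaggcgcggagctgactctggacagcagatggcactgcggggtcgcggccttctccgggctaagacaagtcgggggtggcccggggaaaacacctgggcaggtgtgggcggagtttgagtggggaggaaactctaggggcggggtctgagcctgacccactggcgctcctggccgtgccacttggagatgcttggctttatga
Scnn1b: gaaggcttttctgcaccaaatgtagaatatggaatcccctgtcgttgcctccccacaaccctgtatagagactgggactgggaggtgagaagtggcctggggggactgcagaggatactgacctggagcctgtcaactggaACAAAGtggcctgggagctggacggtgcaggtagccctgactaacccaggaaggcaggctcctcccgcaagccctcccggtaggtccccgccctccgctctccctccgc
Sgk1: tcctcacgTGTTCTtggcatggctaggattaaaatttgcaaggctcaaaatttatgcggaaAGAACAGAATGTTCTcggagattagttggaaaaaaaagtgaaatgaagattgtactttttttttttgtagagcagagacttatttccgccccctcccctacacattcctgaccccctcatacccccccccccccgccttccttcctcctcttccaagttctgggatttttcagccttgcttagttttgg
Capitals mark matches on either strand to AGAACA, the core hexamer of steroid receptor sites, to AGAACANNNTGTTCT, the paired site that holds this hexamer on both strands, and to ACAAAG, a SOX core. A GATA core, AGATAA, was searched for as well and is in none of these 3 windows. The Sgk1 window holds the paired site, whose first base lies 189 bases before that start, and the window ends 776 bases before the most downstream start of the gene. The paired site is in 3 of 32851 windows of this length (0.00913%), AGAACA in 16.1%, ACAAAG in 16.5% and AGATAA in 9.99%. The promoter table held 13 windows for 7 of the 10 genes, of which 2 genes had AGAACA (Sgk1 and Avpr2), 2 had ACAAAG (Scnn1b and Avpr2) and 1 had AGATAA (Sgk1, in windows not shown). These matches describe letters in a window and are not evidence of binding.

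Total counts were 31585507 to 51631204 in uninjured libraries, 8036054 to 23794029 at 48 h, where replicate 2 was the shallowest, and 19239354 to 30414758 at d14. Values are CPM (counts relative to the size of the library) scaled by TMM, which corrects library size for differences in composition, with mean ± SD over 3 libraries. Fold changes are log2 values ± SE from edgeR's quasi-likelihood test, with Benjamini-Hochberg adjusted p over all genes tested and a call at adjusted p under 0.05. Proximal tubule markers were lower in the sorted Sox9 cells, summing to 17500 ± 1230 CPM in the uninjured libraries, 7850 ± 2840 CPM at 48 h and 3750 ± 662 CPM at d14. Fewer cells of a type and less RNA per cell cannot be told apart in these bulk libraries.

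Most of the aldosterone and ENaC genes were higher in Sox9 cells than in uninjured proximal tubule cells, and most were higher still at d14. At 48 h 9 of 10 were higher and none lower, where 17.4% of all genes tested were higher and 11.7% lower. At d14 9 of 10 were higher than in uninjured cells and none lower, where 25.1% of all genes were higher and 20.7% lower. Between 48 h and d14, 7 rose further and 1 fell, where 16.8% of all genes were higher and 16.3% lower. The 3 subunits, Nr3c2, Hsd11b2, Gata3 and Elf5 were higher at d14 than in both other groups, which held for 12.6% of all genes. The median log2 fold change of the 10 genes was 3.07, 4.43 and 1.50 in these comparisons, and that of all genes was 0.0197, 0.0601 and 0.0549. Both Sox9 groups were set against the same uninjured libraries. With libraries scaled by total counts and without TMM, the median of all genes moved to 0.626 in d14 against uninjured and to 0.629 in d14 against 48 h, and all genes split into 7315 higher and 1417 lower in the former and 6812 and 934 in the latter, in place of 3898 and 3214, and 2604 and 2533. The members then split into 9 higher and 0 lower in both.

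**Figure D1:**
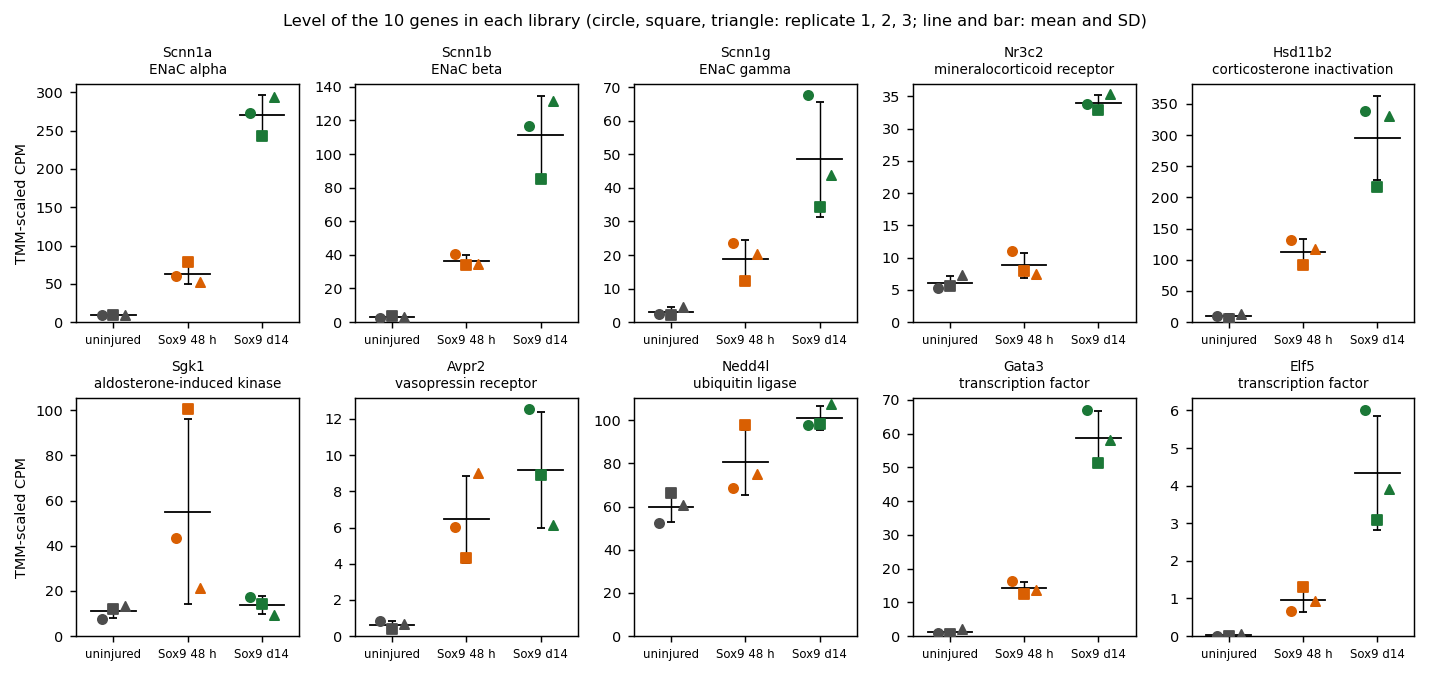
TMM-scaled CPM (vertical axes from 0, one scale per gene) of the 10 genes in each library of the uninjured (grey), Sox9 48 h (orange) and Sox9 d14 (green) groups. Circles, squares and triangles are replicates 1, 2 and 3, and the line and bar are the mean and SD. Scnn1a stepped from 9.08 to 63.4 to 270 CPM, whereas Sgk1 was highest at 48 h and spread from 21.1 to 100.6 CPM there.

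All 3 channel subunits rose at both times. Scnn1a (ENaC alpha) was at 8.82, 8.85 and 9.57 CPM in the uninjured libraries, 59.7, 78.0 and 52.5 CPM at 48 h and 273, 243 and 294 CPM at d14. The groups stood apart with no overlap. Against uninjured cells it was higher by 2.80 ± 0.16 at 48 h (adjusted p = 9.97e-07) and by 4.89 ± 0.17 at d14 (adjusted p = 1.69e-08), a 29.7-fold difference. From 48 h to d14 it rose by 2.10 ± 0.15 (adjusted p = 1.3e-05). Scnn1b (ENaC beta) was at 2.24, 3.76 and 2.84 CPM in the uninjured libraries, 40.3, 34.1 and 34.4 CPM at 48 h and 117, 85.1 and 131 CPM at d14. It had the largest log2 differences of the subunits against uninjured cells, 3.64 ± 0.22 at 48 h (adjusted p = 1.28e-06) and 5.25 ± 0.23 at d14 (adjusted p = 4.02e-08). Its rise from 48 h to d14 was 1.61 ± 0.19 (adjusted p = 1.64e-04). Scnn1g (ENaC gamma) was at 2.52, 2.21 and 4.59 CPM, then 23.6, 12.2 and 20.4 CPM, then 67.6, 34.4 and 43.8 CPM. Here too no library of a group reached the range of another, although d14 replicate 1 stood well above its partners. Scnn1g was higher by 2.6 ± 0.37 at 48 h (adjusted p = 6.87e-04), by 3.96 ± 0.38 at d14 (adjusted p = 1.87e-05) and by 1.35 ± 0.34 from 48 h to d14 (adjusted p = 0.0134). This last call was lost without the filter on low counts (adjusted p = 0.0569).

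Per kilobase of annotated exon, the make-up of the subunit transcripts differed between libraries. Scnn1a took 50.8 ± 4.51% of the 3 subunits in the uninjured group, 43.3 ± 8.04% at 48 h and 53.1 ± 3.86% at d14. Scnn1b took 25.7 ± 6.39%, 38.9 ± 2.53% and 33.9 ± 2.65%, and Scnn1g took 23.4 ± 7.10%, 17.8 ± 5.52% and 13 ± 3.47%. The Scnn1b share was 21.9 to 33.1% in uninjured libraries and 36.0 to 40.6% at 48 h, without overlap. The Scnn1g share ran from 17.2 to 31.1% in uninjured cells and from 10.8 to 17.0% at d14, with 11.4 to 21% at 48 h overlapping both. Gamma was the scarcest subunit in the 6 Sox9 libraries and in uninjured replicates 1 and 2. These shares do not depend on library scaling, and no test was run on them.

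**Figure D2:**
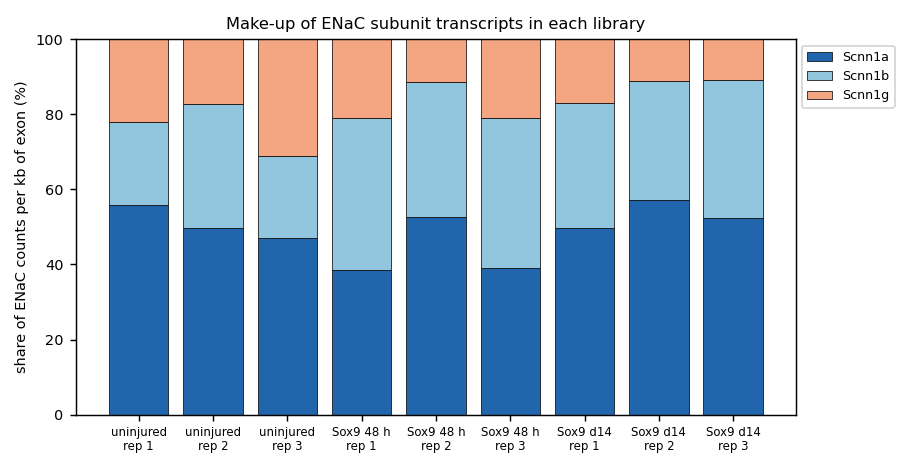
Share (%, vertical axis) of Scnn1a, Scnn1b and Scnn1g in the summed ENaC counts per kilobase of exon, 1 bar per library. The Scnn1b share was 36.0 to 40.6% at 48 h against 21.9 to 33.1% in uninjured cells, and Scnn1g was the smallest segment in each library but uninjured replicate 3.

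The receptor Nr3c2 was called higher than in uninjured cells only at d14, and Hsd11b2, which encodes the enzyme that guards it, at both times. Nr3c2 was at 5.26, 5.65 and 7.28 CPM in the uninjured libraries, 11.1, 7.90 and 7.51 CPM at 48 h and 33.7, 32.9 and 35.3 CPM at d14. The d14 libraries were tightly grouped and far above the rest, while the lowest 48 h library was just above the highest uninjured one. Its log2 difference at 48 h was 0.55 ± 0.19 and missed the threshold (adjusted p = 0.0522), with 6 of 18 alternative analyses passing it (adjusted p 0.0338 to 0.214). At d14 it was higher by 2.49 ± 0.19 than in uninjured cells (adjusted p = 1.82e-06) and by 1.94 ± 0.19 than at 48 h (adjusted p = 6.22e-05).

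Hsd11b2 was at 9.73, 4.46 and 13 CPM in the uninjured libraries, 131, 91.3 and 117 CPM at 48 h and 338, 217 and 331 CPM at d14. It was higher by 3.63 ± 0.37 at 48 h (adjusted p = 1.23e-04) and by 5.02 ± 0.39 at d14 (adjusted p = 6.9e-06), with no overlap between groups. The further rise from 48 h to d14 was 1.38 ± 0.34 (adjusted p = 0.0123), and it missed the threshold without the filter on low counts (adjusted p = 0.0649). Per kilobase of exon Hsd11b2 had the highest level of the 10 genes in both Sox9 groups, at 61.5 ± 11 CPM per kb at 48 h and 161 ± 36.9 CPM per kb at d14. Scnn1a followed, at 15.3 ± 3.19 and 65.4 ± 6.27 CPM per kb. At 48 h the levels of Scnn1b, at 13.8 ± 1.33 CPM per kb, and of Sgk1, at 11.2 ± 8.36 CPM per kb, did not stand apart from it beyond their spread. After these came Scnn1g (6.26 ± 1.96), Nedd4l (4.56 ± 0.856), Gata3 (3.56 ± 0.493), Avpr2 (2.23 ± 0.829), Nr3c2 (1.36 ± 0.299) and Elf5 (0.164 ± 0.0531 CPM per kb). At d14 Scnn1b was at 42.2 ± 8.98 CPM per kb, and Scnn1g (16.2 ± 5.72) and Gata3 (14.8 ± 2.00 CPM per kb) lay within their spread of each other. Nedd4l (5.73 ± 0.309) and Nr3c2 (5.25 ± 0.187 CPM per kb) followed closely, then Avpr2 (3.19 ± 1.11) and Sgk1 (2.78 ± 0.797 CPM per kb), which overlapped in spread, and Elf5 (0.739 ± 0.257 CPM per kb). This order depends on the length used: with the longest coding transcript Nedd4l was at 10.3 ± 1.94 CPM per kb at 48 h, above Scnn1g, and at 13 ± 0.700 CPM per kb at d14, well above Nr3c2 (5.75 ± 0.205). Sgk1 was then at 17.8 ± 13.2 CPM per kb at 48 h and, at d14, above Avpr2 (means of 4.41 and 3.30, within their spread), and Gata3 was above Scnn1g at d14 (18.3 ± 2.47 against 16.2 ± 5.72). In uninjured cells the levels per length were highest for Hsd11b2 (4.93 ± 2.35) and Nedd4l (3.38 ± 0.397 CPM per kb), whose order turned when the longest coding transcript set the length, with Nedd4l at 7.67 ± 0.900 CPM per kb. Sgk1 (2.23 ± 0.602), Scnn1a (2.2 ± 0.103), Scnn1b (1.12 ± 0.290), Scnn1g (1.04 ± 0.433) and Nr3c2 (0.937 ± 0.166 CPM per kb) came next, and Gata3, Avpr2 and Elf5 were at most at 0.294 CPM per kb.

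Sgk1, the aldosterone-induced kinase, did not follow the channel. It was at 7.60, 11.9 and 13.2 CPM in the uninjured libraries, 43.6, 100.6 and 21.1 CPM at 48 h and 17.3, 14.1 and 9.52 CPM at d14. All 48 h libraries were above the others but spread widely, and the uninjured and d14 ranges overlapped. Sgk1 was higher by 2.32 ± 0.54 at 48 h (adjusted p = 0.0143), was lower by 1.99 on the log2 scale at d14 than at 48 h (log2 fold change -1.99 ± 0.54, adjusted p = 0.0228) and differed from uninjured cells by 0.32 ± 0.52 at d14 (adjusted p = 0.659). Without 48 h replicate 2, the library with the highest level, these values were 1.56 (adjusted p = 0.0114), -1.24 (adjusted p = 0.0284) and 0.32 (adjusted p = 0.454). The 48 h call was lost without uninjured replicate 1 or 2 (adjusted p = 0.0601 and 0.0501) and without the filter on low counts (0.0522). The fall to d14 was lost without d14 replicate 1, 2 or 3 (adjusted p = 0.0570, 0.0696 and 0.0834). It was also lost without TMM (adjusted p = 0.0675), with limma voom (0.0632) and without the filter on low counts (0.0728). Neutrophil markers were also high at 48 h, summing to 113, 211 and 342 CPM against 2.80 to 8 CPM in the uninjured libraries and 3.40 to 5.62 CPM at d14. The 48 h library with the most neutrophil transcript had the lowest Sgk1 level. Endothelial markers summed to 591, 67.4 and 116 CPM in the 48 h libraries against 63.1 to 121 CPM in uninjured ones, in another order than Sgk1, and macrophage markers averaged 20.2 CPM in uninjured cells, 60.3 CPM at 48 h and 48.0 CPM at d14. The part of these cells in the Sgk1 level was not tested, and the order of 3 libraries is too little to tell it.

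The V2 receptor Avpr2 and the ligase Nedd4l changed less between the Sox9 groups. Avpr2 was at 0.825, 0.386 and 0.685 CPM in the uninjured libraries, 6, 4.31 and 9.03 CPM at 48 h and 12.5, 8.91 and 6.15 CPM at d14. Both Sox9 groups lay above the uninjured range and overlapped with each other. It was higher by 3.34 ± 0.43 at 48 h (adjusted p = 2.43e-04) and by 3.83 ± 0.43 at d14 (adjusted p = 3.01e-05). The log2 difference between d14 and 48 h was 0.49 ± 0.38 (adjusted p = 0.352), and 1.09 without TMM (adjusted p = 0.0415). The exons of Avpr2 overlap those of Arhgap4 on the other strand, which had up to 236% of its count in a library. The strand setting of the counting was not among the sources used here, so reads of these genes may be mixed.

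Nedd4l was at 52.3, 66.3 and 60.5 CPM in the uninjured libraries, 68.8, 97.6 and 75.3 CPM at 48 h and 97.6, 98.4 and 107 CPM at d14. It was expressed in every group, and its differences were the smallest of the called ones. At d14 Nedd4l was higher than in uninjured cells by 0.76 ± 0.14 (adjusted p = 0.00117). The 48 h difference of 0.43 ± 0.14 was just inside the threshold (adjusted p = 0.0445). That call was lost in 11 of 18 alternative analyses, among them the removal of any 1 library other than 48 h replicate 1, and the value was 0.27 without 48 h replicate 2. Between 48 h and d14 the difference was 0.33 ± 0.14 (adjusted p = 0.0987). It passed without 48 h replicate 2 (0.49, adjusted p = 0.0139), with limma voom (0.40, adjusted p = 0.0448) and without TMM (0.90, adjusted p = 5.79e-04).

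The transcription factors Gata3 and Elf5 were scarce in uninjured cells and rose at both times. The d14 difference of Gata3 from uninjured cells was close to that of Scnn1b, and their order turned without uninjured replicate 2 (5.30 and 5.40). Gata3 was at 0.934, 0.597 and 1.98 CPM in the uninjured libraries, 16.3, 12.5 and 13.7 CPM at 48 h and 67.1, 51.3 and 58.2 CPM at d14. The groups did not overlap. Gata3 was higher by 3.58 ± 0.33 at 48 h (adjusted p = 4.25e-05), by 5.62 ± 0.35 at d14 (adjusted p = 6.9e-07) and by 2.04 ± 0.29 from 48 h to d14 (adjusted p = 6.18e-04). Without uninjured replicate 3, the highest of its group, the differences from uninjured cells were 4.17 and 6.22. Gata3 is also known from T and innate lymphoid cells and from mesangial cells. Of 7 T and innate lymphoid markers, Cd3e, Cd3d, Cd3g, Trac and Il7r had too few counts to be tested. Among these, Cd3d had none at d14. Trac went the other way, at 0.0725 CPM in uninjured cells, 0.0615 CPM at 48 h and 0.619 CPM at d14. Its d14 libraries did not overlap with the other groups. The list summed to 58.6 to 65.0 CPM in the uninjured libraries, 32.2 to 51.3 at 48 h and 31.4 to 35.7 at d14. Nearly all of this sum was Rora, which was lower than in uninjured cells at 48 h and d14 (edgeR, adjusted p = 0.0105 and 5.48e-04). Thy1, the other marker tested, was at 0.460, 0.0187 and 0.386 CPM in the 3 groups. It was lower than in uninjured cells at 48 h (adjusted p = 0.0480) and not called at d14 (adjusted p = 0.865). Mesangial and stromal markers summed to 5.41 to 10.5, 2.44 to 4.66 and 3.95 to 10.7 CPM. Within that list Col1a1, a collagen of stromal cells, was at 0.156 CPM in uninjured cells and 3.08 CPM at d14 (adjusted p = 0.00722), Col1a2 was higher at d14 than at 48 h (adjusted p = 0.0405), and Ren1 was lower at d14 than in uninjured cells (adjusted p = 0.00622). The part of these cells in the Gata3 level was not tested.

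Elf5 was nearly absent from uninjured cells, with 0, 0 and 2 counts, where 3 counts correspond to 0.0651 to 0.105 CPM. It was at 0.673, 1.29 and 0.922 CPM at 48 h and 6.02, 3.09 and 3.92 CPM at d14. Pooled over libraries, 41 counts at 48 h and 393 at d14 against 2 gave ratios of 50.3 (95% counting interval 13.1 to 429) and 248 (68.1 to 2050), which cover counting error only. Both differences were called (adjusted p = 0.00123 and 4.38e-05). From 48 h to d14 Elf5 was higher by 2.2 ± 0.66 (adjusted p = 0.0248). This call was lost without 48 h replicate 1 or 3 (adjusted p = 0.0657 and 0.0605) and without d14 replicate 1 or 3 (0.123 and 0.0658).

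**Figure D3:**
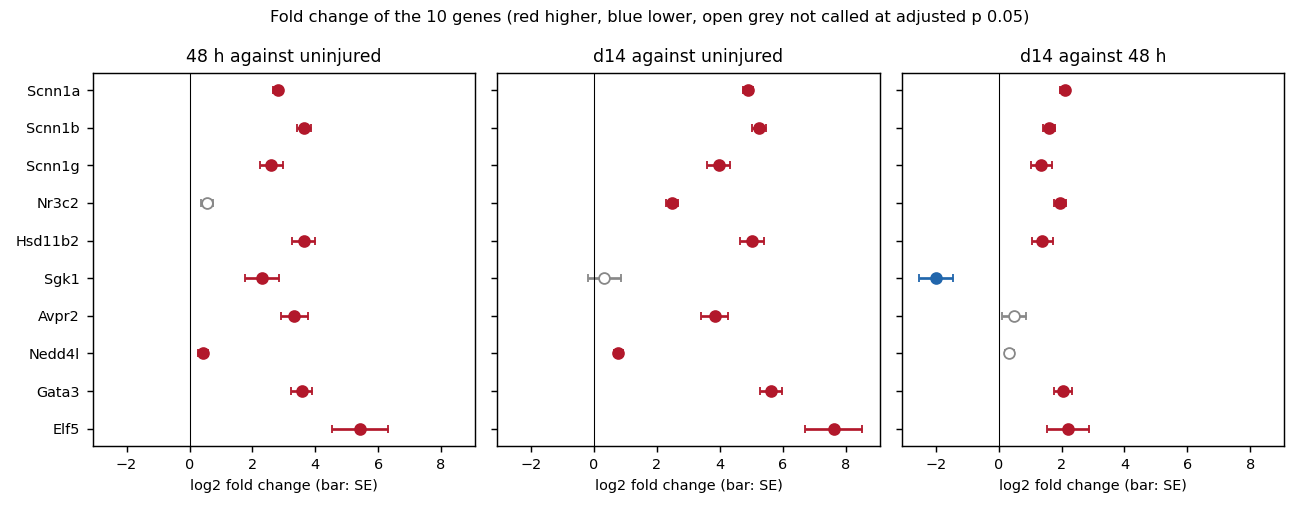
Log2 fold change (horizontal axis, bar: SE) of each gene in 48 h against uninjured, d14 against uninjured and d14 against 48 h. Red points were called higher, blue lower and open grey points not called. Sgk1 is the only point below 0 in d14 against 48 h (-1.99), and the Elf5 values against uninjured cells rest on 2 uninjured counts.

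The label of the set was set against markers of principal cells and of other nephron segments. These lists were chosen with earlier results of these data known. Of 10 principal cell markers 9 were higher at 48 h and at d14 than in uninjured cells and none lower, and 6 were higher at d14 than at 48 h, beside 17.4%, 25.1% and 16.8% of all genes tested. Their median log2 fold change was 3.25 at 48 h, 4.04 at d14 and 0.759 between d14 and 48 h. The subunits lay on both sides of the first value (2.80, 3.64 and 2.6 for Scnn1a, Scnn1b and Scnn1g) and of the second (4.89, 5.25 and 3.96), and above the last (2.10, 1.61 and 1.35). Single markers rose as far as the subunits, among them Ehf, a transcription factor of collecting duct epithelium (13.9-fold at 48 h and 46.8-fold at d14), and the keratin Krt7 (13.3-fold and 46.9-fold). Others rose less, among them Hoxb7 (1.64-fold and 2.44-fold) and Tfcp2l1 (3.23-fold and 4.24-fold). Aqp3 was called in no comparison (1.07-fold and 0.793-fold). The marker sum moved less than the subunits, from 222 ± 16.8 to 788 ± 260 and 1210 ± 206 CPM. Its largest part was Tfcp2l1, a transcription factor of principal and intercalated cells, at 141, 456 and 598 CPM. The ENaC sum went from 15.1 ± 1.74 to 118 ± 9.66 and 430 ± 58.7 CPM. Each of these sums had, against uninjured cells, an exact two-sided permutation p of 0.10, the smallest that 3 against 3 allows, and so did ENaC between d14 and 48 h, while the marker sum had 0.20 there. Aqp2, the vasopressin-regulated water channel that defines these cells, was at 107, 99.6 and 115 CPM at 48 h and 88.1, 77.4 and 116 CPM at d14 against 3.93 to 5.84 CPM in uninjured cells. Its log2 difference between d14 and 48 h was -0.20 ± 0.17 (adjusted p = 0.410).

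Most markers of distal nephron segments and of intercalated cells were also higher at d14 than in uninjured cells. The 8 distal convoluted and connecting tubule markers summed to 281 to 323 CPM in the uninjured libraries, 598 to 849 CPM at 48 h and 3420 to 4700 CPM at d14, and the d14 mean was 5.87 times that at 48 h. All 8 were called higher at d14 than in both other groups, which held for 12.6% of all genes tested. Pvalb at d14 (0.634, 44.2 and 16.2 CPM) nevertheless overlapped with its uninjured range. At 48 h 4 of the 8 were higher and 1 (Sgms2) lower than in uninjured cells. The 7 thick ascending limb markers summed to 236 to 337, 789 to 984 and 3070 to 5650 CPM, with 6 higher at 48 h and 6 at d14. The 9 intercalated cell markers summed to 27.6 to 39.1, 128 to 168 and 364 to 441 CPM, with 7 and 8 higher. Against uninjured cells, the background rates among the 15519 genes were 17.4% up and 11.7% down for 48 h. For d14 these rates were 25.1% up and 20.7% down. Of 6 urothelial markers, Upk2 and Upk3a had no counts in uninjured cells or at 48 h. Psca had none in uninjured cells and was called higher at 48 h (0.496 CPM, adjusted p = 0.00647) and at d14 (1.02 CPM, adjusted p = 0.00131), and the list summed to at most 2.64 CPM in any library. The part of these cell types in the levels of the ENaC and aldosterone genes was not tested.

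**Figure D4:**
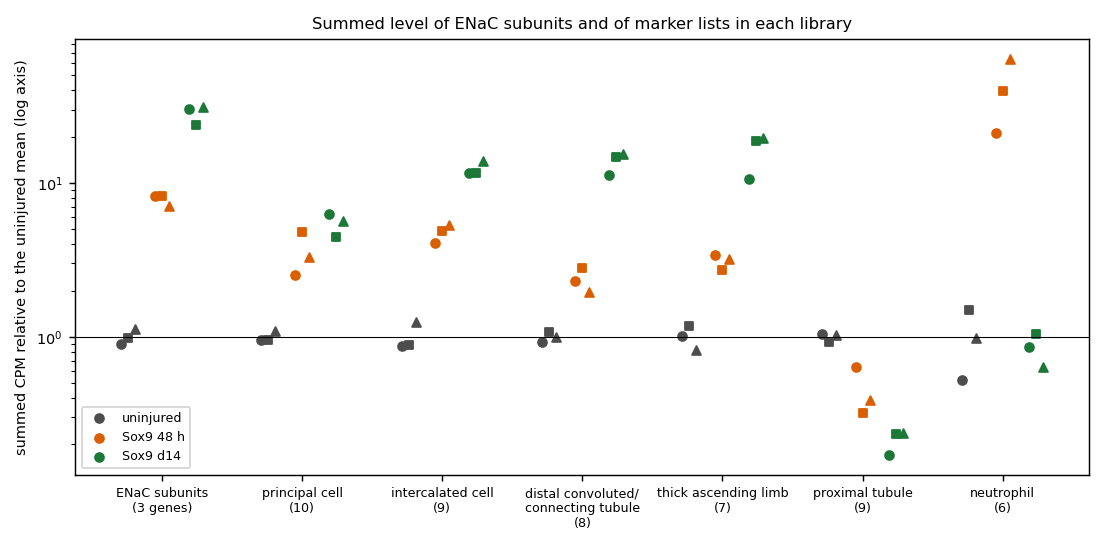
Summed CPM of the 3 ENaC subunits and of marker lists (number of genes in brackets) in each library, relative to the uninjured mean on a log axis. Circles, squares and triangles are replicates 1, 2 and 3. ENaC rose to 7.81 and 28.5 times the uninjured mean at 48 h and d14, the principal cell marker sum, whose largest part was Tfcp2l1, to 3.55 and 5.45 times, and distal convoluted and connecting tubule markers to 2.36 and 13.9 times.

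Set against principal cell markers of the same library, a ratio that needs no scaling, the members parted ways. Scnn1a had 4.10 counts per 100 marker counts in the uninjured group, 8.38 at 48 h and 22.5 at d14, and Gata3 had 0.515, 1.99 and 4.87. No d14 library of these genes overlapped with the other groups. Scnn1b had 1.34, 5.03 and 9.15, also without overlap. Scnn1g had 1.38, 2.71 and 3.93, and its 48 h range (1.14 to 4.22) overlapped with both other groups. Avpr2 went from 0.285 to 0.901 and 0.762. Hsd11b2 went from 4.03 to 16 and 24.1, with 48 h replicate 1 (23.5) inside the d14 range of 21.9 to 26.3. Nr3c2 stood at 2.72, 1.25 and 2.85, so its d14 range (2.41 to 3.32) overlapped with that of uninjured cells (2.47 to 3.02). Sgk1 went from 4.91 and 6.68 to 1.14, and Nedd4l from 27.0 to 10.6 and 8.49. In uninjured cells Tfcp2l1 (141 CPM) and Aqp3 (48.5 CPM), which was called in no comparison, made up most of the marker sum, so the denominator differs in make-up between groups.

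**Figure D5:**
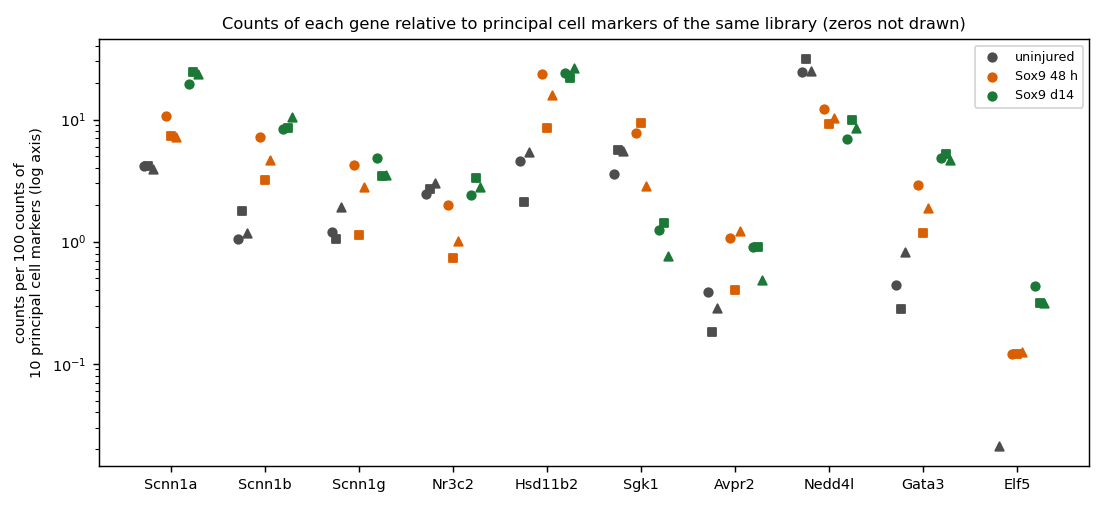
Counts of each gene per 100 summed counts of 10 principal cell markers in the same library (log axis), coloured by group, with circles, squares and triangles for replicates 1, 2 and 3. Scnn1a reached 19.5 to 24.5 at d14 against 3.97 to 4.19 in uninjured cells, while Sgk1 was at 0.759 to 1.43 at d14 against 3.58 to 5.64. Zero values of Elf5 are not drawn.

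A wider list of 48 genes of ENaC processing, steroid signalling, the WNK kinases, potassium channels and the sodium pump was tested beside the set. It holds 4 genes (Aqp2, Aqp3, Aqp4 and Fxyd4) that are also principal cell markers. Kcnj1 is also among the thick ascending limb markers above, and Slc12a3 among the distal convoluted and connecting tubule markers. At 48 h 15 were higher and 4 lower than in uninjured cells, at d14 23 were higher and 11 lower, and between 48 h and d14 17 rose and 10 fell. Over all genes tested the shares were 17.4% and 11.7%, 25.1% and 20.7%, and 16.8% and 16.3%. The medians of the list were 0.163, 0.411 and 0.0895 on the log2 scale, and those of all genes 0.0197, 0.0601 and 0.0549. The 4 became 2 without uninjured replicate 2, and the 10 became 6 without uninjured replicate 3 or d14 replicate 1 and 5 without d14 replicate 2. Without TMM the split between d14 and 48 h was 27 higher and 2 lower, and 4 were lower at d14 than in uninjured cells.

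The genes of this list with the smallest p included potassium channels, kinases and transporters, while others of the same kinds did not pass. The potassium channels Kcnj16 (log2 fold change at d14 -0.42, adjusted p = 0.0923) and Kcnma1 (0.27, adjusted p = 0.858) and the kinase Oxsr1 (-0.07, adjusted p = 0.616), named after their values were seen, were called in no comparison. Kcnj1, the secretory channel ROMK, was at 10.2 ± 0.286 CPM in the uninjured libraries, 66.4 ± 5.14 CPM at 48 h and 423 ± 79.9 CPM at d14, and was higher by 5.37 ± 0.17 at d14 (adjusted p = 1.01e-08). Kcnj10, a basolateral potassium channel, went from 5.39 ± 0.918 to 32.7 ± 6.05 and 218 ± 29.7 CPM. Stk39, which encodes the kinase SPAK that acts under the WNKs on the sodium-chloride cotransporter, was higher by 2.40 ± 0.14 at 48 h (adjusted p = 1.28e-06) and by 4.30 ± 0.15 at d14 (adjusted p = 1.69e-08). Wnk1 was higher by 2.43 ± 0.22 at d14 (adjusted p = 5.84e-06) and not called at 48 h (0.41 ± 0.21, adjusted p = 0.165). Slc12a3, the cotransporter itself, went from 57.5 ± 25.4 to 259 ± 84.4 and 2770 ± 885 CPM. Aqp4, the basolateral water channel of principal cells, was at 0.247 ± 0.140, 3.19 ± 2.06 and 18.4 ± 5.91 CPM.

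The protease genes of the wider list moved in different directions. Furin was lower at d14 than in uninjured cells (log2 fold change -0.74, adjusted p = 2.07e-04), and Tmprss2 was higher (1.27, adjusted p = 1.82e-05). Both were named after their values were seen. St14, which encodes matriptase, an activator of prostasin, was at 3.58, 2.67 and 2.59 CPM in the uninjured libraries, 60.4, 62.4 and 80.3 CPM at 48 h and 242, 170 and 245 CPM at d14. It was higher by 4.51 ± 0.21 at 48 h (adjusted p = 3.64e-07) and by 6.21 ± 0.23 at d14 (adjusted p = 1.73e-08). Prss8, which encodes prostasin and was named after its values were seen, was at 301, 294 and 268 CPM, then 206, 200 and 190 CPM, then 113, 117 and 146 CPM. Its groups did not overlap, and it was lower by 0.54 ± 0.12 at 48 h and by 1.2 ± 0.12 at d14 than in uninjured cells (log2 fold changes of -0.54, adjusted p = 0.00764, and -1.2, adjusted p = 1.54e-05).

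The genes whose pattern over the 9 libraries was most like the mean of the ENaC subunits were Sort1, Thbs1, Ckap4, Gsn and Sh2d4a, among 12341 genes of at least 1 CPM on average. Their root mean square difference in centred log2 CPM was 0.142 to 0.241, and Sort1, which encodes the sorting receptor sortilin, was the closest at 5.58, 45.0 and 156 CPM in the 3 groups. Among the other members Hsd11b2 ranked 140 (0.476), Elf5 169, Gata3 223, Avpr2 390, Nr3c2 1066, Nedd4l 2523 and Sgk1 6354 (1.98). Closest to Sgk1 were Spc25, Acsf2, Fkbp5, S100g and Insl6, at 0.467 to 0.529. Fkbp5, a co-chaperone of steroid receptors and itself a steroid-induced gene, was at 93.6, 250 and 62.8 CPM at 48 h, highest in the same library as Sgk1, and its 48 h difference from uninjured cells was not called (1.25, adjusted p = 0.0765).

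In GRCm38 (mm10), from GENCODE M21, the protein-coding members lie as follows. Scnn1a (ENSMUSG00000030340.16) is on chromosome 6 from 125320659 to 125344943. Scnn1b (ENSMUSG00000030873.9) is on chromosome 7 from 121865038 to 121918514 and Scnn1g (ENSMUSG00000000216.8) from 121734479 to 121768475. Nr3c2 (ENSMUSG00000031618.13) is on chromosome 8 from 76899442 to 77245012, as is Hsd11b2 (ENSMUSG00000031891.6) from 105518755 to 105523988. Sgk1 (ENSMUSG00000019970.15) is on chromosome 10 from 21882184 to 21999903 and Avpr2 (ENSMUSG00000031390.8) on chromosome X from 73892102 to 73895502. Gata3 (ENSMUSG00000015619.10) is on chromosome 2 from 9857078 to 9890034, on the minus strand, and Elf5 from 103411688 to 103450989. Nedd4l is on chromosome 18. The deposited identifiers of Elf5 (ENSMUSG00000027186.15) and Nedd4l (ENSMUSG00000024589.18) carry another version than GENCODE M21 does, from which their positions come. Annotated partners with overlapping exons held at most 0.962% of the count of Nr3c2, 0.736% of that of Nedd4l and 3.70% of that of Gata3 in any library.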

How the data were processed

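RNA of FACS-sorted tdTomato-positive kidney cells was sequenced as poly(A)-selected, strand-specific libraries made from up to 30 ng of RNA, per the labels' protocols. The values are expected counts per gene, which the authors deposited as whole numbers, not scaled to a common depth, with column names of RSEM gene results per the file headers. Listed without roles in the submitters' processing notes are R 3.6.3, DESeq2 1.26.0, RSEM 1.2.28, STAR 2.6.1 and bcl2fastq 2.20, and the builds mm10 and GRCh38. All gene identifiers are mouse. The sources used here state neither annotation release nor strand setting. GENCODE M21 holds 54487 of the 55385 identifiers in the same version. The 92 spike-in rows were at 0 counts and left out.

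Counts were analysed in R 4.3.3 with edgeR 4.0.16: filterByExpr (minimum count 10, minimum total 15) kept 15519 genes, libraries were scaled by TMM, and a quasi-likelihood model with 1 mean per group was fitted robustly to all 9 libraries. The step was tested on simulated data. limma 3.58.1 and DESeq2 1.42.0 served as alternatives. The SE is the log2 fold change over the square root of F. Log2 CPM for likeness used a prior count of 2. Levels per kb use the union of exons. With 3 counts as the floor, a gene without counts allows up to 0.0651 to 0.431 CPM, for counting error only. Members and lists were chosen with earlier results of these data known. Beyond the members, named genes are the 8 called genes of the wider list with the smallest p and 5 genes each most like ENaC and Sgk1, all others being named after their values were seen. Alternatives were other scalings, tests, filters, a replicate block and leaving out each library.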

Additional observations from a re-analysis of the deposited data

How the results depend on the processing

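Of 30 log2 fold changes of members (10 genes in 3 comparisons), 21 kept their direction and their side of the threshold in all 18 alternatives, none changed direction in any, and the exceptions are given with the genes above. Removing libraries gave 7 to 9 members higher and 0 lower at 48 h, 9 higher and 0 lower at d14, and 6 to 8 higher and 0 to 1 lower between d14 and 48 h. The count of 1 lower (Sgk1) was 0 without TMM, with limma voom and without the filter on low counts, and the cause was not tested. The number of genes called lower at 48 h fell from 1818 to 1147 and 1208 without uninjured replicate 1 or 3. Replicate numbers are shared between groups, but same-numbered libraries did not deviate together (r = -0.127 to 0.019 across genes). For differently numbered libraries of different groups r was -0.0472 to 0.0966. The numbers were therefore used only to name samples, and a batch shared by libraries of the same number was not tested. With the replicate block, 9, 9 and 6 members were higher in the 3 comparisons and 0, 0 and 1 lower. The d14 rise of Elf5 over 48 h then had adjusted p = 0.0616. Log2 ratios of summed ENaC levels were 2.90 to 3.06, 4.76 to 4.94 and 1.79 to 1.97 over the removal of libraries, and those of principal cell markers 1.54 to 2.03, 2.34 to 2.58 and 0.428 to 0.910. Depth limits Elf5 most, with 2 counts over the uninjured group.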

Other observations

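Genes known as targets of steroid receptors were read beside Sgk1 and were chosen after their values were seen. Per1, a clock gene induced by aldosterone and glucocorticoids, was at 5.15, 10.6 and 7.39 CPM in the uninjured libraries, 12.1, 32.2 and 13.6 CPM at 48 h and 16.9, 12.3 and 10.7 CPM at d14, and was higher at 48 h by 1.30 (edgeR, adjusted p = 0.0334), with no call between d14 and 48 h (-0.51, adjusted p = 0.349). Tsc22d3, which encodes GILZ, was at 13.7, 14.5 and 18.1 CPM, then 29.2, 23.4 and 17.4 CPM, then 11.7, 17.1 and 16.6 CPM, and was lower at d14 than at 48 h (log2 fold change -0.63, edgeR, adjusted p = 0.0482) but not called at 48 h against uninjured cells (0.59, adjusted p = 0.0632). Fkbp5 was also lower at d14 than at 48 h (-1.52, adjusted p = 0.0362) and likewise not called at 48 h against uninjured cells (1.25, adjusted p = 0.0765), and Zbtb16 was called in no comparison. The glucocorticoid receptor Nr3c1 was at 109, 66.3 and 54.9 CPM in uninjured, 48 h and d14 cells and was lower than in uninjured cells at both times (-0.72, adjusted p = 0.0120, and -0.99, adjusted p = 8.55e-04). Hsd11b1, which regenerates active corticosterone, was at 21.2, 12.9 and 16.1 CPM in the uninjured libraries and 0.634, 2.53 and 3.16 CPM at d14 (-2.98, adjusted p = 7.1e-04). Sgk2, the relative of Sgk1, was at 152, 92.7 and 42.5 CPM in the 3 groups and was lower at d14 by 1.84 on the log2 scale (log2 fold change -1.84, adjusted p = 1.78e-05).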
